A study of Homo sapiens with 9 samples.

Results

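The genes described here build the lipid-linked glycan that is transferred to asparagine residues of new proteins, and make up the enzyme complex that transfers it, oligosaccharyltransferase. The list named 35 genes, of which 31 were measured among the 18239 genes of the array table. Members were chosen by pathway, but with earlier results of these data known. A probe set is a group of short array probes summarised as 1 value. Each gene was represented by the probe set that carried exactly 1 gene symbol and had the highest mean over the 9 arrays. In none of the 3 comparisons between constructs did any of the 31 genes, or any of all 18239, pass the test. The median differences of the 31 genes were 0.02, 0.0048 and 0.02 on the log2 scale. With each array left out in turn, 23 of the 31 genes took the other sign at least once in Del52 against wild type, 17 in Ins5 against wild type and 20 in Del52 against Ins5. The share of all genes that did so is not given here, so these counts do not set the members apart.

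N-linked glycosylation starts on the endoplasmic reticulum membrane, where sugars are added one at a time to the lipid dolichol. The growing glycan is first extended on the cytosolic face, is flipped, is completed in the lumen with mannose and glucose, and is moved as a block to the protein. Calreticulin, the protein encoded by CALR, is a chaperone of the same compartment that recognises glycoproteins by a glucose left on this glycan.

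K562 is an established human leukaemia line with erythroid features. All 9 samples were K562 cells transduced by retrovirus, 3 arrays each with wild-type CALR, with CALR Del52 and with CALR Ins5, and every group carried the NGFR surface marker used to purify transduced cells. Infection ran in 4 cycles at intervals of 12 h, cells were then cultured for 36 h, purity 48 h after selection was above 90%, and RNA was taken from 100000 cells. Del52 and Ins5 are frameshift forms of calreticulin found in myeloproliferative neoplasms. The groups limit what can be read from them: all came from 1 cell line, the viral promoter is not given in the sources used here, and no sample without a transduced CALR was analysed here. The replicates are numbered, but nothing says that they were separate cultures, so the p-values measure the spread between these samples, which may be technical. The samples were bulk RNA, in which fewer cells with a transcript and less transcript per cell cannot be told apart.

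Of the 9 measured K562 markers, 8 (HBG1, HBE1, HBZ, GATA1, TAL1, KLF1, TFRC and LMO2) exceeded the brightest antigenomic control probe set in every array, and EPOR did not. Of the markers of other cell types, 0 of 6 megakaryocyte, 0 of 7 lymphoid, 1 of 9 granulocyte and monocyte (LYZ) and 3 of 9 fibroblast and epithelial genes (EPCAM, KRT8 and KRT18) did so. CALR itself read 7.29, 7.67 and 7.73 in wild-type replicates 1 to 3, 7.25 to 7.61 in Del52 and 7.26 to 7.48 in Ins5. These ranges overlapped. NGFR read between 3.33 and 3.48, within the range of the antigenomic controls (1.53 to 6.52). Wild-type replicates 2 and 3 were the least alike of all pairs of arrays (r = 0.974 across genes, which are not independent replicates). Their scores on the first principal component of all genes, which held 70.5% of the variance, were 0.57 and -0.57, against -0.30 to 0.30 for the other 7 arrays. The 3-prime minus 5-prime difference of the actin control, a measure of RNA integrity, was 1.08 in wild-type replicate 2 and 1.31 in wild-type replicate 3, and 1.18 to 1.39 in the other 7 arrays; its part in the results was not tested.

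Promoter stretches of 4 members are shown because 2 of them hold a complete unfolded-protein-response motif and the others belong to genes that the comparisons below turn on. In the RefSeq table for GRCh38.p14, 31 of the 35 genes had 42 start-site windows, each running from 250 bases before the start to 50 bases after it. The stretches below end at the start site, except in DHDDS, where the stretch ends 1 base later because the motif crosses it. Capitals mark the endoplasmic reticulum stress element in ALG12, the unfolded protein response element in DHDDS (read from the other strand), and the CCAAT and CCACG boxes that make up the stress element, on either strand, in DOLK and DDOST.
ALG12, chr22:49918439-49918688, minus strand: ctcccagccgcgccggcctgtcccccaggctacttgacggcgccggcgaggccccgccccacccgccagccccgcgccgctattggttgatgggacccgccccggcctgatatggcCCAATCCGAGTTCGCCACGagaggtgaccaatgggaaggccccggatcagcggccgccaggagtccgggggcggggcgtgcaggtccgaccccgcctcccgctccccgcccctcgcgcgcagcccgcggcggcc
DHDDS, chr1:26432071-26432321, plus strand: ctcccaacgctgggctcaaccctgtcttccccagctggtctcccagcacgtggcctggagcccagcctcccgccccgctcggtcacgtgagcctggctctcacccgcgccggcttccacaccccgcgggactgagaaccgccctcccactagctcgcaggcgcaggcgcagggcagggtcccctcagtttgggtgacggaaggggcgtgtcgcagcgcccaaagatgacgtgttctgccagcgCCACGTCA
DOLK, chr9:128947604-128947853, minus strand: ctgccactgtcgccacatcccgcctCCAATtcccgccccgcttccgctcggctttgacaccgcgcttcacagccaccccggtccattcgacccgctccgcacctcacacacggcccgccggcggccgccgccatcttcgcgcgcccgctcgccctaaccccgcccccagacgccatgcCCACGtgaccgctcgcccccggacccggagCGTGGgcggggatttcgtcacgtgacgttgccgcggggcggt
DDOST, chr1:20661370-20661619, minus strand: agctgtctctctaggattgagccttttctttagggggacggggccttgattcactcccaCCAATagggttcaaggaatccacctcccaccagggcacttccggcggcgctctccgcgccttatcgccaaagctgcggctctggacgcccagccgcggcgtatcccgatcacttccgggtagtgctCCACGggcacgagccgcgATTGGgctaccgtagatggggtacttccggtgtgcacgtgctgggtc

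The stress element ERSE, bound by ATF6 with NF-Y, is a CCAAT box followed at a fixed spacing by a CCACG box, and was searched for on both strands. It was found in 1 of 42 member windows (2.38%), that of ALG12, 134 bases before the start, against 0.0769% of all 35116 windows and 0.104% of the 22199 windows of protein-coding genes. The same search found it in the windows of CALR and HSPA5. The unfolded protein response element TGACGTGG, bound by XBP1, was found in 1 member window, that of DHDDS, 7 bases before the start, against 0.761% of protein-coding windows. Its reverse complement, CCACGTCA, contains the CCACG box. The boxes alone were common. CCAAT was in 20 member windows (47.6%, against 34.7% of protein-coding windows) and CCACG in 30 (71.4%, against 43.1%). Some windows of one gene overlap. Counted by gene, CCAAT was in 18 and CCACG in 22 of 31 members. CCACG holds a CpG, and the median GC content was 61.2% in member windows and 62.3% in protein-coding windows. The related element ERSE-II was in 0 member windows (0.0676% of protein-coding windows), and the ATF4 composite TGATGNAAT was in 0 as well (0.662%). A match is a description of the letters in the window.

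Over all 31 genes, differences lay on both sides of 0. In Del52 against wild type the median log2 difference was 0.02, against 0.01 over all genes, and 18 of 31 members (58.1%) lay above 0, against 54.6% of all genes. In Ins5 against wild type the median was 0.0048, against 0.02, and 17 members (54.8%) lay above 0, against 59.6%. With each array centred on its own median, the Ins5 figures became -0.03 and 12 members above 0. Both mutants were compared with the same wild-type arrays, so both sets of differences share that source. The medians also moved with single wild-type arrays. Without wild-type replicate 2 they were -0.05 in Del52 and -0.08 in Ins5, with 8 members above 0 in each, and without wild-type replicate 3 they were 0.04 and 0.07, with 21 and 19 members above 0. In Del52 against Ins5 the differences do not use the wild-type arrays, although their SE and p do through the shared fit. The median was 0.02, against -0.01 over all genes, and 19 members (61.3%) lay above 0, against 45.4%. Without Del52 replicate 2 that count was 12, and without Ins5 replicate 2 it was 24.

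No gene of the table passed an adjusted p of 0.05 (limma with Benjamini-Hochberg adjustment over all 18239 genes) in any comparison, so the background was 0% throughout. At an unadjusted limma p under 0.05, 2 members (GMPPA and ALG5) were found in Del52 against wild type, 6.45% of members against 7.05% of all genes (1285 genes). In Ins5 against wild type it was 1 member (DDOST), 3.23% against 7.41% (1351 genes). In Del52 against Ins5 it was 0 members against 5.77% (1052 genes). The 3 arrays of Del52 did not overlap the 3 of wild type in 2 members, GMPPA below and ALG5 above, against 10.6% of all genes (6.23% above and 4.36% below). For Ins5 this held in 2 members, ALG2 and DDOST, both below, against 11.5% (8.16% above and 3.3% below). Between Del52 and Ins5 it held in 0 members, against 10.1% (3.81% above and 6.28% below). The counts in both directions together were below their background shares. The 2 members below wild type in Ins5 made 6.45% of members, against 3.3% of all genes. A single member makes 3.23% of the 31, so this count is too small to read a direction from.

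**Figure D1:**
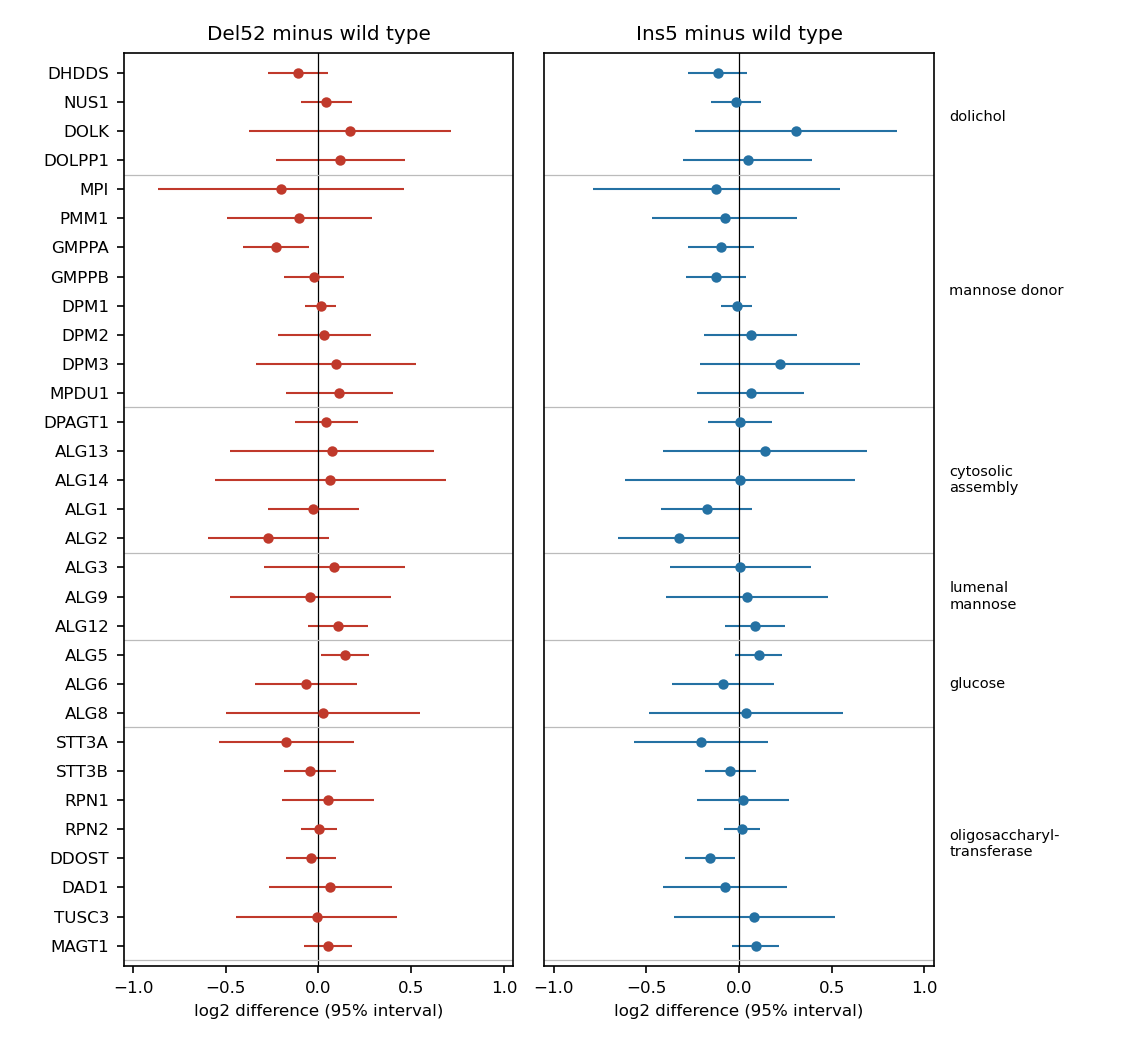
Log2 difference from wild type of each of the 31 measured genes in Del52 (left) and Ins5 (right), ordered by role, with limma's 95% interval (3 arrays per construct). Intervals leave 0 out for GMPPA and ALG5 in Del52 and for DDOST in Ins5; all differences lie between -0.32 and 0.31.

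Dolichol synthesis and recycling held 4 measured genes of 5. Their median difference was 0.08 in Del52 and 0.02 in Ins5, and none passed the test. DHDDS and NUS1 are the paired subunits of the prenyltransferase that makes the dolichol chain. DHDDS read 5.64, 5.75 and 5.68 in wild-type replicates 1 to 3, 5.66, 5.44 and 5.63 in Del52 and 5.54, 5.65 and 5.53 in Ins5. The highest mutant arrays lay inside the wild-type range, and the differences were -0.11 ± 0.07 (SE, n = 3 per group, limma adjusted p = 0.831) in Del52 and -0.12 ± 0.07 (adjusted p = 0.786) in Ins5. NUS1 read 8.37 to 8.53 in wild type, 8.38 to 8.53 in Del52 and 8.39 to 8.44 in Ins5, so both mutants overlapped wild type, and Del52 minus Ins5 was 0.06 ± 0.06 (SE, n = 3 per group, limma adjusted p = 1.00). DOLPP1, the phosphatase that returns spent dolichol to the cycle, read 5.94 to 6.50 in wild type, and all 6 mutant arrays lay between those values.

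DOLK, the kinase that makes dolichol phosphate, had the highest difference of all members in both mutants with all 9 arrays fitted. It read 4.97, 5.47 and 4.56 in wild type, 5.23, 4.91 and 5.38 in Del52 and 5.28, 5.10 and 5.55 in Ins5. Wild-type replicate 3 was the lowest of the 9 arrays and wild-type replicate 2 the second highest, so the groups overlapped. The difference was 0.31 ± 0.23 (SE, n = 3 per group, limma adjusted p = 0.856) in Ins5 and 0.17 ± 0.23 (adjusted p = 0.972) in Del52. In Ins5 it was 0.54 without wild-type replicate 2 and 0.09 without wild-type replicate 3, and in Del52 it was 0.40 and -0.05. All 9 DOLK values lay within the range of the antigenomic controls (1.53 to 6.52). DOLK also has a dimmer probe set, and that one read the other way in Ins5, at -0.17.

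The mannose donors held 8 measured genes of 9, with median differences of -0.0047 in Del52 and -0.05 in Ins5. GMPPA, the regulatory partner of the enzyme that makes GDP-mannose, had the smallest p of all members in Del52. It read 6.93, 6.95 and 7.10 in wild type, 6.77, 6.89 and 6.64 in Del52 and 6.96, 6.81 and 6.92 in Ins5. All 3 Del52 arrays were below all 3 wild-type arrays, while the Ins5 arrays overlapped both. The Del52 difference was -0.23 ± 0.08 (SE, n = 3 per group, 95% interval -0.41 to -0.05, limma adjusted p = 0.633), and a dimmer GMPPA probe set gave -0.15. The Ins5 difference was -0.10 ± 0.08 (adjusted p = 0.869), and Del52 minus Ins5 was -0.13 ± 0.08 (adjusted p = 0.952).

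GMPPB, the catalytic subunit of the same enzyme, read 4.19, 4.27 and 4.43 in wild type, 4.31, 4.28 and 4.23 in Del52 and 4.24, 4.19 and 4.09 in Ins5. Of the mutant arrays, only Ins5 replicate 3 lay below the wild-type range. The Ins5 difference was -0.12 ± 0.07 (SE, n = 3 per group, limma adjusted p = 0.769), and Del52 minus Ins5 was 0.10 ± 0.07 (adjusted p = 0.993). MPI, which brings fructose 6-phosphate into the mannose pathway, and PMM1, a phosphomannomutase, varied mostly between wild-type arrays. MPI read 5.40, 4.91 and 5.99 in wild type, and the 6 mutant arrays read 4.99 to 5.60. PMM1 read 5.37, 5.05 and 5.68 in wild type against 5.19 to 5.41 in Del52 and 5.05 to 5.46 in Ins5. The wild-type arrays spanned all 6 mutant arrays in MPI and 5 of the 6 in PMM1, whose differences were -0.10 ± 0.17 (SE, n = 3 per group, limma adjusted p = 0.983) in Del52 and -0.08 ± 0.17 (adjusted p = 1.00) in Ins5.

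DPM1, the catalytic subunit of dolichol-phosphate mannose synthase, was the steadiest member, at 9.82 to 9.86 in wild type, 9.84 to 9.88 in Del52 and 9.82 to 9.85 in Ins5. Its interval for the difference from wild type ran from -0.07 to 0.10 in Del52 and from -0.10 to 0.07 in Ins5. Its membrane partners spread more widely. DPM2 spanned 7.99 to 8.39 and DPM3 spanned 6.29 to 7.08 over the 9 arrays, and MPDU1, needed for use of the lipid-linked sugars, spanned 6.89 to 7.41. In these 3 genes wild-type replicate 2 was the lowest array.

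Assembly on the cytosolic face held 5 measured genes of 6. DPAGT1, which adds the first sugar and is the target of tunicamycin, read 8.10, 7.99 and 8.24 in wild type, 8.18, 8.24 and 8.04 in Del52 and 8.10, 8.15 and 8.10 in Ins5. The groups overlapped, and the differences were 0.04 ± 0.07 and 0.0047 ± 0.07 (SE, n = 3 per group). ALG13 and ALG14 together form the next transferase. ALG13 spanned 7.03 to 7.95 and ALG14 spanned 4.77 to 5.76 over the 9 arrays, each with its lowest value in wild-type replicate 2 and its highest in wild-type replicate 3. ALG1 adds the first mannose. It read 3.50 to 3.77 in wild type, 3.43 to 3.80 in Del52 and 3.37 to 3.51 in Ins5, all within the antigenomic range. Del52 minus Ins5 was 0.15 ± 0.11, the highest of the members in that comparison.

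ALG2, which adds the next mannoses, had the lowest difference of all members in both mutants with all 9 arrays fitted. It read 7.17, 7.69 and 7.39 in wild type, 7.34, 6.96 and 7.13 in Del52 and 7.14, 7.01 and 7.13 in Ins5. All 3 Ins5 arrays lay below all 3 wild-type arrays, the closest being Ins5 replicate 1 and wild-type replicate 1, and Del52 replicate 1 overlapped wild type. The differences were -0.32 ± 0.14 (SE, n = 3 per group, limma adjusted p = 0.676) in Ins5 and -0.27 ± 0.14 (adjusted p = 0.762) in Del52. Without wild-type replicate 2 they were -0.19 and -0.14, no longer the lowest, and without wild-type replicate 1 they were -0.45 and -0.39. The 2 dimmer ALG2 probe sets gave -0.17 and -0.08 in Ins5 and -0.10 and -0.03 in Del52.

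Of the lumenal mannosyltransferases ALG3, ALG9 and ALG12, all 3 were measured and none passed. ALG3, which starts the lumenal arm, read 7.24 to 7.85 in wild type, and all 6 mutant arrays lay between those values. ALG9 read 5.09 to 5.80 in wild type and 5.29 to 5.74 in the mutants, again inside. ALG12, the gene whose promoter holds the complete stress element shown above, read 3.17, 3.19 and 2.97 in wild type, 3.17, 3.19 and 3.28 in Del52 and 3.17, 3.14 and 3.27 in Ins5. Wild-type replicate 3 stood below the rest. The differences were 0.11 ± 0.07 (SE, n = 3 per group, limma adjusted p = 0.841) in Del52 and 0.09 ± 0.07 in Ins5. The ALG12 probe set lay within the antigenomic range.

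Glucosylation held 3 measured genes of 4. ALG5, which makes dolichol-phosphate glucose, had the smallest p in Del52 among the members above wild type. It read 7.11, 7.14 and 7.25 in wild type, 7.33, 7.29 and 7.31 in Del52 and 7.31, 7.32 and 7.19 in Ins5. All Del52 arrays lay above all wild-type arrays, and Ins5 replicate 3 fell inside the wild-type range. The difference was 0.14 ± 0.06 (SE, n = 3 per group, 95% interval 0.02 to 0.27, limma adjusted p = 0.659) in Del52 and 0.11 ± 0.06 (adjusted p = 0.737) in Ins5. ALG6 adds the first glucose and read 6.42 to 6.85 in wild type, 6.41 to 6.73 in Del52 and 6.52 to 6.63 in Ins5. ALG8, which adds the second, read 8.47, 8.01 and 8.89 in wild type, 8.45, 8.75 and 8.24 in Del52 and 8.51, 8.67 and 8.30 in Ins5. The wild-type arrays spanned every mutant array in ALG8, and its differences were 0.02 ± 0.23 and 0.04 ± 0.23.

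**Figure D2:**
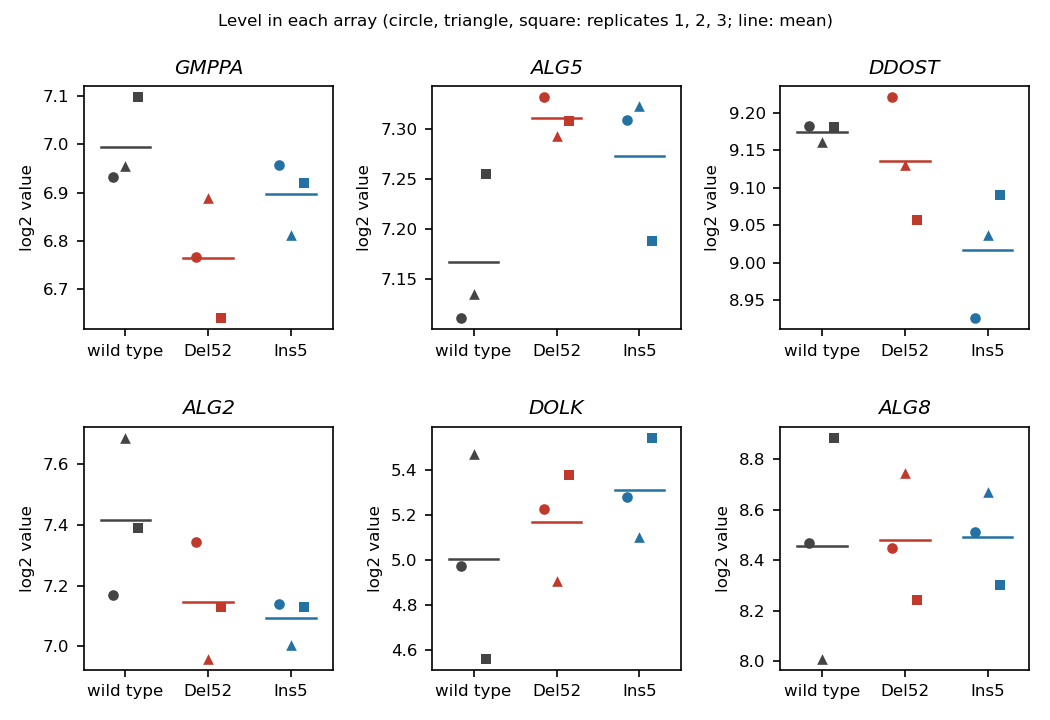
Log2 expression value of 6 genes in each array (points, replicates 1 to 3; lines, group means), each panel with its own vertical axis, which does not start at 0. Del52 lies wholly below wild type in GMPPA and above it in ALG5, Ins5 lies wholly below wild type in DDOST and ALG2, and the wild-type arrays span the mutants in ALG8.

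All 8 listed oligosaccharyltransferase subunits were measured, with median differences of -0.0030 in Del52, -0.02 in Ins5 and 0.02 between Del52 and Ins5. STT3A and STT3B are alternative catalytic subunits: complexes with STT3A act as proteins enter the lumen, and complexes with STT3B act on sites left behind. STT3A read 7.98, 7.79 and 8.37 in wild type, 7.87, 8.01 and 7.75 in Del52 and 7.92, 7.97 and 7.64 in Ins5. The groups overlapped, and the differences were -0.17 ± 0.16 (SE, n = 3 per group, limma adjusted p = 0.911) and -0.21 ± 0.16 (adjusted p = 0.856). Without wild-type replicate 3 they were -0.010 and -0.042, and without wild-type replicate 2 they were -0.30 and -0.34. STT3B read 8.49 to 8.54 in wild type, 8.36 to 8.53 in Del52 and 8.40 to 8.55 in Ins5. Its differences were -0.05 ± 0.06 (adjusted p = 0.962) and -0.05 ± 0.06 (adjusted p = 0.966).

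MAGT1 and TUSC3 are alternative oxidoreductase subunits of the STT3B complexes. MAGT1 read 7.73, 7.88 and 7.74 in wild type, 7.86, 7.79 and 7.85 in Del52 and 7.90, 7.82 and 7.90 in Ins5. Wild-type replicate 2 overlapped both mutants, and the differences were 0.05 ± 0.06 (SE, n = 3 per group, limma adjusted p = 0.936) and 0.09 ± 0.06 (adjusted p = 0.793). TUSC3 read 8.06, 7.78 and 8.50 in wild type, which spanned all 6 mutant arrays (7.93 to 8.38). Its differences were -0.01 ± 0.19 (adjusted p = 1.00) and 0.08 ± 0.19 (adjusted p = 1.00). Between Del52 and Ins5 the paralogs differed by 0.03 ± 0.16 (STT3A), 0.0015 ± 0.06 (STT3B), -0.04 ± 0.06 (MAGT1) and -0.09 ± 0.19 (TUSC3), each at an adjusted p of 1.00, and all 4 values had the other sign under at least 1 alternative.

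DDOST, a subunit shared by both kinds of complex, had the smallest p of all members in Ins5 against wild type. It read 9.18, 9.16 and 9.18 in wild type, 9.22, 9.13 and 9.06 in Del52 and 8.93, 9.04 and 9.09 in Ins5. The wild-type arrays were close together and all 3 Ins5 arrays were below them, while Del52 lay on both sides. The difference was -0.16 ± 0.06 (SE, n = 3 per group, 95% interval -0.29 to -0.02, limma adjusted p = 0.637) in Ins5 and -0.04 ± 0.06 (adjusted p = 0.979) in Del52. Del52 minus Ins5 was 0.12 ± 0.06 (adjusted p = 0.911), the smallest p of the members in that comparison. The 2 dimmer DDOST probe sets gave -0.10 and -0.11 in Ins5.

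The other shared subunits overlapped between constructs. RPN2 read 9.75 to 9.84 in wild type, 9.76 to 9.81 in Del52 and 9.77 to 9.83 in Ins5, and its interval in Del52 ran from -0.09 to 0.10. RPN1 read 8.67 to 9.03, 8.74 to 8.93 and 8.70 to 8.92 in the same order. DAD1, a small subunit required for a stable complex, read 9.09, 8.96 and 9.48 in wild type, 9.34, 9.29 and 9.10 in Del52 and 9.10, 9.26 and 8.94 in Ins5. Only Ins5 replicate 3 left the wild-type range.

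**Figure D3:**
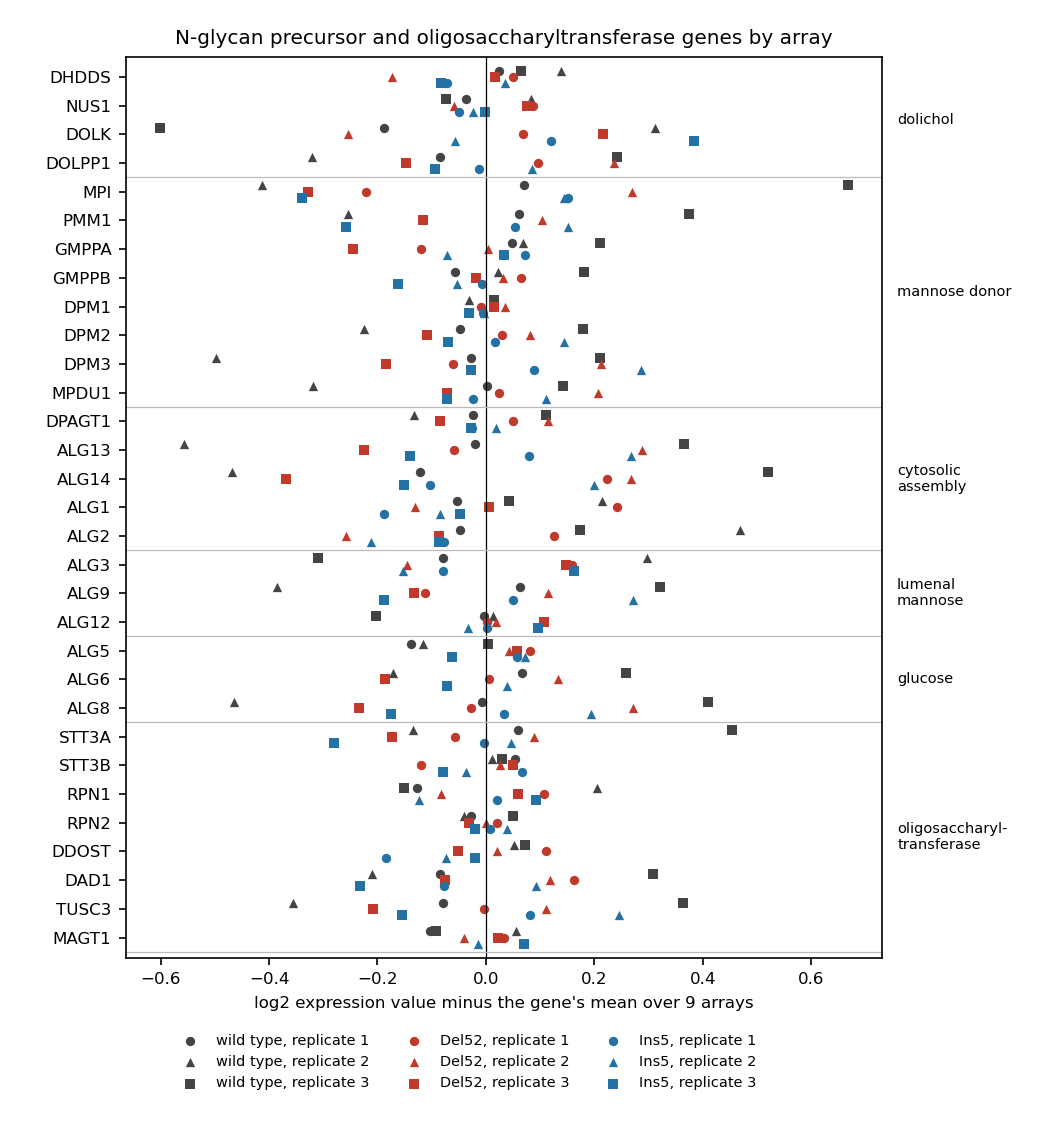
Log2 value of each of the 31 genes in each array, as the deviation from that gene's mean over the 9 arrays (colour, construct; shape, replicate number). Wild-type replicates 2 and 3 lie at opposite ends for many genes, such as MPI, ALG13, ALG14 and ALG8, and DPM1 and RPN2 hardly vary.

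The spread between arrays of one construct set the precision. The SD within constructs, pooled over the 3 groups, ran from 0.022 (DPM1) to 0.40 (MPI) with a median of 0.16, against 0.10 over all genes and 0.15 over genes above the median level. The half-width of the 95% interval for a difference from wild type ran from 0.083 (DPM1) to 0.66 (MPI), with a median of 0.27. In 11 members the highest and the lowest of the 9 arrays were wild-type replicates 2 and 3. The share of all genes with this pattern is not given here. The median over the members of an array's deviation from each gene's mean over the 9 arrays was -0.12 in wild-type replicate 2 and 0.17 in wild-type replicate 3, and -0.07 to 0.04 in the other 7 arrays. The Del52 difference exceeded the within-construct SD in 5 of 31 members (DHDDS, GMPPA, ALG2, ALG12 and ALG5), a smaller share than the 30.3% of all genes. In Ins5 it did so in 8 of 31 (DHDDS, GMPPA, GMPPB, ALG1, ALG2, ALG5, DDOST and MAGT1), also a smaller share than the 30.9% of all genes.

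**Figure D4:**
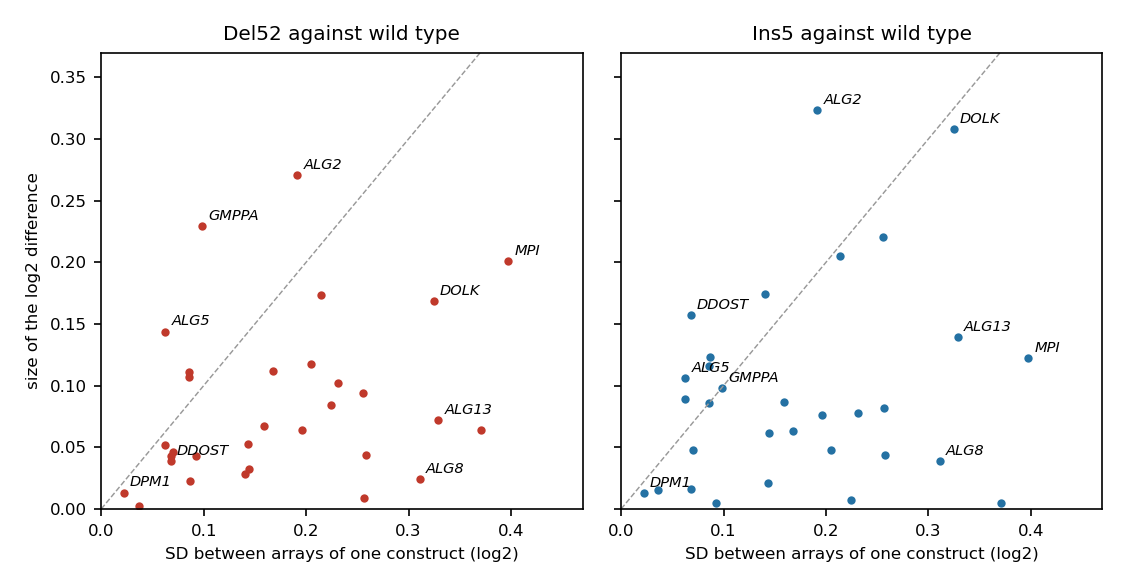
Size of the log2 difference from wild type (vertical) against the SD between arrays of one construct (horizontal) for the 31 genes, with Del52 on the left and Ins5 on the right. Points above the dashed line of equality, 5 in Del52 and 8 in Ins5, differ from wild type by more than 1 such SD. Over all genes this held in 30.3% and 30.9%.

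With the first principal component of the 9 arrays as a covariate in the limma fit, 4 genes of the table passed an adjusted p of 0.05 in Del52 against wild type (0.0219%), 7 in Ins5 against wild type (0.0384%) and 0 in Del52 against Ins5. Members among them numbered 0, 1 and 0, and the member was DOLK in Ins5, at 0.30 ± 0.03 (SE, n = 3 per group, adjusted p = 0.0431). Unadjusted p under 0.05 was reached by 10 members in Del52 (32.3%, against 19.3% of all genes), by 8 in Ins5 (25.8%, against 19%) and by 2 between the mutants (6.45%, against 15.3%). The component was computed from the same values, members included, so these fits do not give independent p-values. With any 1 array left out, no gene of the table was called in this fit in any comparison, so the DOLK call was lost too. In Ins5 against wild type, DOLK then had adjusted p from 0.0931 to 0.463 and differences from 0.28 to 0.32. Its dimmer probe set gave -0.18 ± 0.13 in this fit (adjusted p = 0.492 over all probe sets).

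Of the 20 members with several probe sets, 8 had probe sets on both sides of 0 in Del52 against wild type, 9 in Ins5 against wild type and 8 in Del52 against Ins5. GMPPA in Del52 and DDOST and ALG2 in Ins5 were not among them. ALG5 had a single probe set. In 19 of the 31 members every array exceeded the brightest antigenomic control, and in 12 it did not. These 12 were DHDDS, DOLK, DOLPP1, MPI, PMM1, GMPPB, DPM3, ALG14, ALG1, ALG9, ALG12 and ALG6.

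Genes that act before, beside and after these steps were read from separate lists, and none passed the limma test in any comparison. Over all genes, arrays did not overlap in 10.6% for Del52 against wild type, 11.5% for Ins5 against wild type and 10.1% between the mutants. Of the other oligosaccharyltransferase subunits and malectin, 5 of 5 were measured, with medians of -0.03 in Del52 and 0.02 in Ins5. TMEM258, a small subunit, read 9.46 ± 0.06 in Del52 and 9.49 ± 0.03 in Ins5 against 9.60 ± 0.06 in wild type (SD, n = 3), with adjusted p of 0.655 and 0.683. ALG10B, the paralog of the terminal glucosyltransferase ALG10, read 4.71 ± 0.24 in Del52 and 4.58 ± 0.16 in Ins5 against 5.08 ± 0.40 in wild type. All Ins5 arrays lay below all wild-type arrays (difference -0.51 ± 0.21, SE, adjusted p = 0.651). ALG10B read 5.54, 4.86 and 4.85 in wild-type replicates 1 to 3 and 4.39, 4.68 and 4.65 in Ins5. Wild-type replicate 1 thus stood apart, and all values lay within the antigenomic range. DHRSX, which acts on polyprenol in dolichol synthesis, differed by 0.11 in Del52 (adjusted p = 0.755), also within the antigenomic range.

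The supply lists were mixed. Of the mevalonate and isoprenoid genes 7 of 9 were measured, with 6 above 0 in Del52 (median 0.08) and 2 above 0 in Ins5 (median -0.05), and GGPS1 had the smallest p in Del52 (-0.16 ± 0.07, SE, limma adjusted p = 0.743). Of the genes that supply UDP-linked sugars 9 of 11 were measured, with medians of 0.02 and 0.01. HK2, a hexokinase, read 6.61 ± 0.11 in Del52 against 6.31 ± 0.10 in wild type (SD, n = 3) without overlap, at an adjusted p of 0.603. UAP1, which makes UDP-GlcNAc, read 8.31 ± 0.13 in Ins5 against 8.50 ± 0.07, at an adjusted p of 0.664.

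Of the genes that use the finished sugars and glycans, none passed either. The other users of dolichol-phosphate mannose, 11 of 11 measured, had medians of 0.0067 in Del52 and 0.0033 in Ins5. DPY19L3, a C-mannosyltransferase, differed by -0.26 in Ins5 (limma adjusted p = 0.581), and PIGV, a mannosyltransferase of the GPI anchor, by -0.30 in Del52 (adjusted p = 0.748). Of the genes for glycan trimming and glucose-dependent folding 14 of 14 were measured, with medians of -0.02 and 0.03. PDIA3, the disulfide isomerase that works with calreticulin, read 9.17 ± 0.08 in Del52 against 8.75 ± 0.18 in wild type (SD, n = 3), a difference of 0.42 ± 0.10 (SE, adjusted p = 0.603) without overlap. No other gene of the 14 was without overlap in that comparison. In Ins5 against wild type PDIA3 differed by 0.28 ± 0.10 (SE, limma adjusted p = 0.614), with overlap. UGGT2, which re-adds glucose to misfolded glycoproteins, read 4.79 ± 0.20 in Del52 and 5.21 ± 0.19 in Ins5 without overlap (adjusted p = 0.841). The Golgi maturation list, 19 of 19 measured, had medians of 0.02 and 0.02, and in Ins5 GNPTAB, which starts the mannose 6-phosphate tag, differed by 0.14 ± 0.04 (SE, adjusted p = 0.581). The values of DPY19L3, PIGV, UGGT2 and GNPTAB lay within the antigenomic range.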

How the data were processed

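The authors deposited 1 log2 value per Affymetrix probe set and array. The submitters' processing notes name Partek and RMA, with no version given in the sources used here. That the values are base 2 is inferred from their highest value, 12.2. RMA normalizes between arrays, so a shift common to most genes is removed, and the medians of the 9 arrays ran from 3.73 to 3.76. The number of arrays limits the precision.

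The table held 49386 probe sets. The 93 controls were left out, and of the rest 45253 had 1 gene symbol, 1327 several and 2713 none in the platform annotation. Of the first kind, 45172 were found in RefSeq's gene table (GRCh38.p14). The brightest such probe set stood for each of the 18239 genes. SRD5A3, PMM2, ALG10 and ALG11 had no probe set with exactly 1 symbol and were not analysed here.

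All 9 arrays entered 1 limma fit (limma 3.58.1, R 4.3.3) with a mean per construct, 6 residual degrees of freedom, moderated variances and Benjamini-Hochberg adjustment over all genes. The fit was tested on simulated data. Full statistics are given for the members with the 5 smallest p per comparison, for any past an adjusted p of 0.05, and for paralog pairs, and of each pathway list up to 2 genes with the smallest p. DOLK, DPAGT1, DPM1, RPN2 and ALG8 were added after their values were seen. The members, lists and motifs were chosen with earlier results of these data known. The labels do not say that the replicate numbers pair the samples. Correlations of deviations from the group means were -0.92 to 0.64 for same-numbered and -0.77 to 0.88 for differently numbered arrays. Del52 and Ins5 correlated at -0.56 for replicate 1, 0.64 for replicate 2 and 0.57 for replicate 3. Wild-type replicate 2 went with mutant replicates 3 (0.79 and 0.88), and wild-type replicate 3 with mutant replicates 2 (0.87 and 0.84). Deviations within a group of 3 sum to 0, so these values are not independent. Alternatives covered normalization, centring, a level filter, probe sets, a replicate block, the variance model, the arrays fitted, a covariate and each array left out; those on single probe sets and on the covariate fit with arrays left out were chosen after seeing the data.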

Additional observations from a re-analysis of the deposited data

How the results depend on the processing

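The count of called genes was 0 in each comparison under every alternative except the first principal component as covariate, which gave 4 genes in Del52 against wild type, 7 in Ins5 against wild type and 1 member, DOLK, in the latter. No member was called under the other alternatives. The unadjusted counts, 1285, 1351 and 1052 genes, became 386, 386 and 242 with the replicate number as a block, under which 0 genes and 0 members were called. Of the 9 arrays, 0 correlated best with an array of their own number.

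Of the 31 members, with each array left out in turn, 23, 17 and 20 took the other sign at least once in Del52 against wild type, in Ins5 against it and between the mutants. A further 6, 11 and 11 kept their sign but moved by over 1.5 times, and 2 (GMPPA and ALG5), 3 (DHDDS, ALG5 and DDOST) and 0 moved less. The shares of all genes are not given for these counts, so they do not set the members apart. Among members given with full statistics, the following values had the other sign than the reported ones. With the mean of all probe sets the values were 0.0028 for STT3B, -0.029 for RPN2 and 0.026 for TUSC3 in Del52 against wild type, -0.00045 for DPAGT1 and -0.013 for RPN2 in Ins5 against wild type and 0.0060 for MAGT1 in Del52 against Ins5. With arrays centred on their medians the values were -0.0077 for RPN2 in Del52 against wild type and -0.029 for DPAGT1 and -0.019 for RPN2 in Ins5 against wild type. Under quantile normalization the values were 0.0054 for TUSC3 in Del52 against wild type and -0.0050 for STT3B in Del52 against Ins5. With the covariate the values were 0.018 for TUSC3 in Del52 against wild type. With 1 array left out, their ranges that crossed 0 were, in Del52 against wild type, -0.053 to 0.40 for DOLK, -0.26 to 0.054 for PMM1, -0.075 to 0.043 for GMPPB, -0.0023 to 0.025 for DPM1, -0.016 to 0.11 for DPAGT1, -0.20 to 0.24 for ALG8, -0.078 to 0.0067 for STT3B, -0.014 to 0.031 for RPN2, -0.081 to 0.00042 for DDOST and -0.17 to 0.18 for TUSC3. In Ins5 against wild type they were -0.24 to 0.079 for PMM1, -0.054 to 0.068 for DPAGT1, -0.18 to 0.25 for ALG8, -0.0019 to 0.043 for RPN2 and -0.084 to 0.28 for TUSC3. In Del52 against Ins5 they were -0.15 to 0.059 for PMM1, -0.069 to 0.095 for STT3A, -0.031 to 0.054 for STT3B and -0.20 to 0.0032 for TUSC3. The cause was not tested.

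With 3 arrays per construct, the half-width of the unadjusted 95% interval was 0.27 in the median member. It is not a detection limit of the adjusted test. GMPPA and ALG5 in Del52 and DDOST in Ins5 differed by more than their own half-widths and did not pass. A further limit is signal over background, since 12 members did not exceed the brightest antigenomic control in every array. That control is the brightest of 23, whose mean was 2.38 to 2.45 by array. The mean levels of the 12 members ran from 3.17 (ALG12) to 6.79 (DPM3), so they are not equally close to background.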
